A study of Mus musculus with 42 samples.

Results

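HSP90 is an abundant ATP-driven chaperone that helps kinases, steroid receptors and other client proteins reach their active fold. It works with co-chaperones that deliver clients, adjust its ATPase cycle or release clients, and in mammals the cytosolic form is made from a strongly stress-inducible gene and a more constitutive one. Arsenite binds thiols and damages proteins, which frees the heat shock factor HSF1 to switch on chaperone genes. The set described here was the cytosolic HSP90 genes Hsp90aa1 (alpha, the inducible form) and Hsp90ab1 (beta, the constitutive form), the mitochondrial paralog Trap1, and 6 co-chaperones. The co-chaperones were Ahsa1, which stimulates the HSP90 ATPase, Stip1, which hands clients from HSP70 to HSP90, Fkbp4, a peptidyl-prolyl isomerase of steroid receptor complexes, Cdc37, which recruits kinases, Ptges3 (p23), which stabilises the closed complex, and Chordc1 (morgana), a CHORD domain co-chaperone. The members were fixed by gene symbol, by a rule that uses no measured value, though the set was proposed with earlier results of these data known. All 9 were found in the RNA-seq data (9 of 12364 listed genes) and in the 3′READS data (9 of 14660 genes with a polyadenylation site, PAS). On the strand of each gene and up to 4 kb past its annotated end, 66 of 83916 PASs belonged to them.

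The study followed mRNA 3′ ends in mouse cell lines during and after arsenic stress (AS). NIH3T3 fibroblasts and C2C12 myoblasts were left untreated (NT) or exposed to 250 µM sodium arsenite for 1 h, and some cultures then recovered in normal medium (RC4 is 4 h of recovery). All libraries carry the strain label C57BL/6. There were 38 libraries of 3′READS, which counts reads at the poly(A) junction of each transcript, and 4 RNA-seq libraries counted over coding sequence (CDS). NIH3T3 total RNA gave 3 NT and 3 AS libraries in sets numbered 1, 2 and 4, and set 4 also had 1 library each at 4, 8, 12 and 24 h of recovery. RNA labelled with 50 µM 4-thiouridine (4sU) for the last 1 h before harvest was split into a newly made fraction (4sU) and a flow-through of pre-existing RNA (Ft), with 1 library per condition. RNA bound by TIA1, a stress granule protein, was immunoprecipitated from NT and AS lysates next to cytoplasmic input RNA, with 2 libraries each. C2C12 cells contributed cytoplasmic RNA of proliferating (C2C12P) and differentiated (C2C12D) cultures with and without AS (1 library per condition) and total RNA of untreated C2C12P and C2C12D cells (2 libraries each). Differentiation was induced by serum change, so a C2C12D culture can hold undifferentiated cells beside myotubes.

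Depth was 1048335 to 6974664 reads per 3′READS library and 17137579 to 25194062 reads per RNA-seq library. The arsenite and differentiation labels held up against marker genes, but a list of 8 fibroblast genes did not separate the cell lines. It summed to 7266 to 23210 normalized RPM in NT libraries of NIH3T3 total RNA and 17820 to 18660 in C2C12P total RNA. Summed over 8 arsenite response genes, NIH3T3 total RNA held 1436 to 2041 normalized RPM in NT, 4315 to 5285 in AS and 29820 at RC4, and 8 myotube genes summed to 26260 to 27580 in C2C12D and 203.5 to 222.5 in C2C12P total RNA. Levels below are normalized RPM, that is, reads scaled to a common library size after median-ratio normalization, and changes are log2 ratios with 0.5 added to each level. Where a condition had 1 library, a change had no replicate check, a gene was counted when past 2-fold, and intervals (95%) covered counting error only. In such bulk RNA, fewer cells and less RNA per cell cannot be told apart. The paper describes replicates of its total RNA, TIA1 and C2C12 differentiation data as biological. It does not state that they were separate cultures, so *P*-values measure only the spread between these libraries.

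The 3′ ends of the genes are shown as the 30 nt that end at the PAS, read from mm9 on the gene's strand, because several results below turn on which end was used. Capitals mark AATAAA or, where that is lacking, ATTAAA. The proximal and distal PASs (pPAS and dPAS) are the 2 most abundant PASs of a gene outside introns.
Hsp90aa1 pPAS, minus strand, chr12:111929237-111929266: aaagataaatacagaggagataaaaagaag
Hsp90aa1 dPAS, minus strand, chr12:111928618-111928647: ccagcaAATAAActccccttttctccccaa
Hsp90ab1 PAS, minus strand, chr17:45704742-45704771: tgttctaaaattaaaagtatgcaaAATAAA
Fkbp4 pPAS, minus strand, chr6:128380700-128380729: ttttgtaaaaactgaagaattttgagtgaa
Fkbp4 dPAS, minus strand, chr6:128380121-128380150: tgcttgagcAATAAAgtggaaacaacaaaa
Chordc1 minor upstream PAS, plus strand, chr9:18118174-18118203: aatacattaaggtgtgtgttgcggcttgaa
Chordc1 pPAS, plus strand, chr9:18118416-18118445: gtgagccaaAATAAAccttacctcccttga
Chordc1 dPAS, plus strand, chr9:18120186-18120215: aagagacccATTAAAatgttcttgcaaata
The Hsp90aa1 pPAS and both Fkbp4 sites lie in annotated UTRs. The Hsp90aa1 dPAS lies 197 nt and the Chordc1 dPAS 1771 nt past the annotated gene end. Neither the Hsp90aa1 nor the Fkbp4 pPAS window holds either signal, whereas both dPAS windows hold AATAAA. The 75 nt before the Hsp90aa1 pPAS matched 5 places in the genome at 95% identity or more, and those before the Hsp90ab1 PAS matched 2, and the authors kept only reads above a mapping quality minimum, so reads of these sites may have been lost or shared with near-identical copies. Hsp90ab1, Ahsa1, Stip1 and Cdc37 each had 97.1 to 99.6% of their reads at 1 PAS.

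HSF1 binds inverted repeats of the unit GAA. Promoters of 7 of the 9 genes (all but Hsp90aa1 and Hsp90ab1, which were not searched), from 250 nt before to 50 nt after the gene start (RefSeq, GRCm38.p6), were searched on both strands for 2 units (GAANNTTC or TTCNNGAA) and for 3 units, in which a further inverted unit follows at the same spacing, so that each contains both 2-unit motifs. Promoters of 3 members held 2 units, as did 15.06% of 32851 promoters. The promoter of Chordc1 held 3 units, in overlapping matches of which the first is shown, as did 0.6% of all promoters. The 3 promoters are shown here, with the motif in capitals, since Chordc1 was among the genes with the largest changes below.
Chordc1, plus strand, chr9:18292255-18292284: tgcaaccgGAACGTTCGGGAAaattcctga
Fkbp4, minus strand, chr6:128438789-128438818: ccgcttctctaGAAAGTTCtccgctcccgc
Cdc37, minus strand, chr9:21150086-21150115: tcggcgggaacTTCCAGAAggcctcaccac
A match is a description of the letters only.

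At the end of the 1 h arsenite pulse, Hsp90aa1 stood out from the set in RNA-seq of NIH3T3 cells. Its level was 1081 in NT and 3280 in AS, a log2 ratio of 1.60 (1.58 to 1.62) that ranked 74 of 11164 genes. Hsp90aa1 was the 1 member of 9 past 2-fold, and 2.79% of all genes were past 2-fold higher. Its constitutive partner Hsp90ab1 went from 5054 to 6909 (log2 ratio 0.45) and Chordc1 from 33.7 to 47.6 (0.49), both short of 2-fold. The other 6 members lay between -0.34 (Ahsa1) and 0.08 (Cdc37).

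After 4 h of recovery 7 of the 9 genes were past 2-fold higher than in the untreated library of the same time, against 15.8% of all genes. The chaperones themselves changed most in reads. Hsp90aa1 stood at 1380 in NT and 28980 at RC4, a log2 ratio of 4.39 (4.37 to 4.41) or 21-fold, and Hsp90ab1 at 5083 and 30540, a log2 ratio of 2.59 or 6.01-fold. Together they took up 0.749% of all CDS reads in NT and 3.95% at RC4. Per kb of CDS, the level of Hsp90ab1 was 4.73 times that of Hsp90aa1 in NT at the end of treatment, 2.13 times in AS, 3.73 times in NT at 4 h and 1.07 times at RC4.

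Of the co-chaperones, 5 were past 2-fold higher and Cdc37 was not. Chordc1 went from 44.3 in NT to 468 at RC4, a log2 ratio of 3.39 or 10.5-fold, and ranked 111 of 11163 genes. Ahsa1 went from 126.5 to 506.7 (4-fold). Stip1 went from 186 to 690.0 (3.69-fold). These 3 genes were all past 3-fold. Fkbp4 followed at 2.45-fold and Ptges3 at 2.09-fold. Cdc37, the kinase adaptor, was 111 in NT and 113 at RC4, a log2 ratio of 0.02 (-0.06 to 0.11). Trap1, which acts in mitochondria, was 119 and 91.4, a log2 ratio of -0.38 (-0.47 to -0.29). Summed over 5 proliferation markers the same libraries held 1010 in NT and 633.7 at RC4, and the part of cell division was not tested. The untreated libraries of the 2 times differed by a log2 SD of 0.32 over all genes, and 1.13% of genes were past 2-fold between them. The median of the 9 was 1.89, beside 0.01 over all genes tested, 1.98 for 11 HSP70 and HSP110 genes (7 past 2-fold higher), 1.08 for 12 HSP40 genes (7 higher) and 0.79 for 10 chaperonin genes (3 higher). Scaling by library totals in place of the median ratio put the median of all genes at -0.74 (log2). It left 5 members past 2-fold higher and 1, Trap1, past 2-fold lower.

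**Figure D1:**
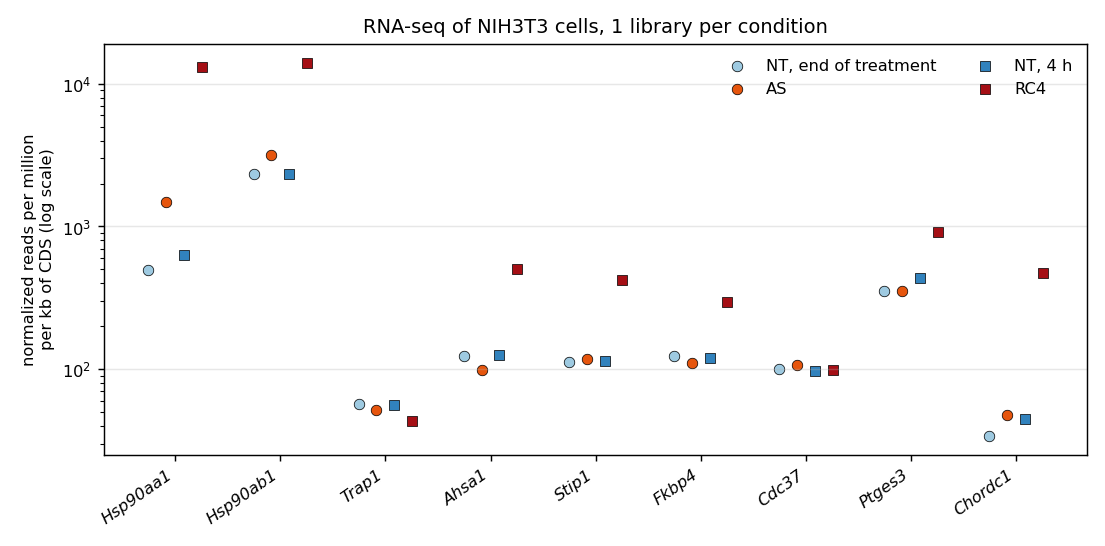
RNA-seq level of the 9 genes in NIH3T3 cells, as normalized RPM per kb of CDS on a log axis, with 1 point per library. At RC4 the Hsp90aa1 and Hsp90ab1 points meet near the top, Chordc1 moves most among the co-chaperones, and the 4 points of Cdc37 lie close together.

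Of 25 further HSP90 paralogs, co-chaperones and regulators, 5 were past 2-fold higher and 1 lower at RC4 in RNA-seq, beside 15.8% and 13.1% of all genes, with a median of 0.17. St13, which carries HSP70 clients towards HSP90, had a log2 ratio of 1.83, the folliculin partners Fnip2 and Fnip1, which slow the HSP90 ATPase, 1.45 and 1.38, and the cyclophilin Ppid 1.05. Nudc had 1.03, and the TPR co-chaperone Ttc4 had -1.52.

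The 4sU and Ft fractions separate RNA made in the last hour from RNA that was already there, and so ask when the change entered the RNA pool. In newly made RNA, Hsp90aa1 was already high at the end of arsenite, at 30.1 in NT and 136 in AS (256 reads against 74), a log2 ratio of 2.15 (1.78 to 2.53). It was the 1 member past 2-fold, against 6.23% of all genes. In the Ft of the same cells Hsp90aa1 was 30.6 and 40.7 (log2 ratio 0.40, -0.02 to 0.83), and 0 of the 9 were past 2-fold, against 4.41% of genes.

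By RC4 the members were high in both fractions. In 4sU RNA 6 of 9 were past 2-fold higher (14.3% of genes), and in Ft 7 of 9 (15.6%). Hsp90aa1 went from 22.3 to 189 in 4sU and from 26.1 to 268 in Ft, log2 ratios of 3.06 and 3.34. Hsp90ab1 went from 43.9 to 162 in 4sU and from 158.5 to 864 in Ft, with 1.87 and 2.44. For Chordc1 the ratio was 1.74 in 4sU and 2.85 in Ft.
Ahsa1 had 1.93 in 4sU and 1.28 in Ft, but 1.76 and 1.45 with both untreated libraries summed, and its untreated Ft to 4sU log2 ratio was 0.76 at one time and 1.61 at the other. Stip1 had 1.67 and 1.98, and Fkbp4 1.02 and 1.44. Ptges3 had 0.97 in 4sU, just short of 2-fold, and 1.12 in Ft. Cdc37 stayed at -0.10 and 0.16 and Trap1 at 0.17 and -0.21.

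The ratio of Ft to 4sU reads within a condition ranks mRNAs by how much of the pool was pre-existing, with stable mRNAs high where levels are steady. In AS and at RC4 levels changed, so the ratio there is not a measure of stability alone. The paper adjusted this ratio for the number of uridines in a transcript, and here it was not adjusted. In NT cells Hsp90ab1 had a log2 ratio of 1.93, at percentile 98.6 of 9939 genes, Trap1 was at percentile 93.3 and Cdc37 at 91.1. Chordc1 was the lowest member, with -0.58 (percentile 32.7). Hsp90aa1 had 0.02 (percentile 52.7) in NT and -1.73 (percentile 9.7) in AS, and 0.22 (percentile 60.6) in NT at 4 h and 0.50 (percentile 69.5) at RC4. As a check of the fractions, all 7 short-lived mRNAs tested, Fos and Myc among them, had negative ratios in both untreated conditions.

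**Figure D2:**
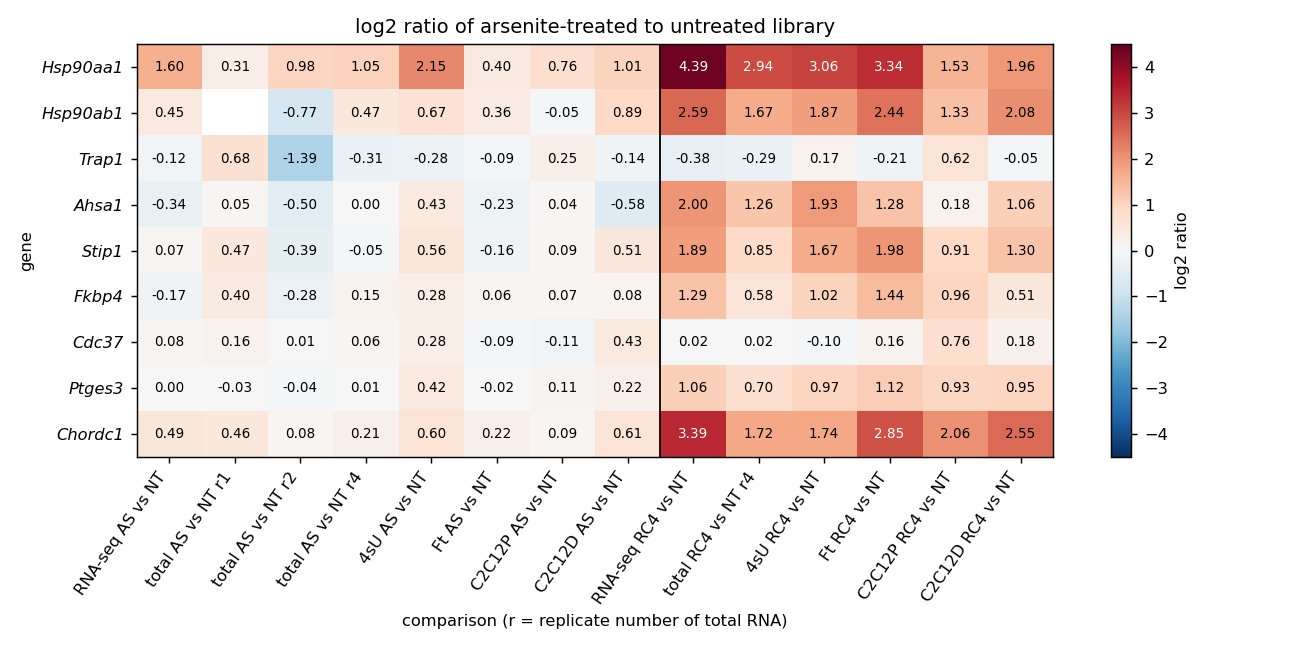
log2 ratio of each arsenite-treated library to its untreated library for the 9 genes (rows) in 14 comparisons (columns), with AS on the left of the line, RC4 on the right, and values printed in the cells. RC4 columns are red for the chaperones and most co-chaperones and near 0 for Cdc37 and Trap1 in NIH3T3 cells; the empty cell is Hsp90ab1 in total RNA replicate 1, which had too few reads.

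Total RNA of NIH3T3 cells gave the replicated view of the AS effect, and there no member passed the test. Hsp90aa1 read 21.3, 31.4 and 11.5 in the NT libraries of replicates 1, 2 and 4, and 26.5, 62.3 and 24.2 in the AS libraries of the same replicates. It was higher in 3 of 3 pairs, by 0.78 ± 0.41 (log2, SD, n = 3), but the NT and AS groups overlapped. By edgeR its log2 change was 0.82 (SE 0.59), adjusted *P* = 1. With the replicate as a block it was 0.77 (SE 0.24), adjusted *P* = 0.408. The test called 0 of 9402 genes, or 0% in either direction, with 19 genes (0.202%) at an unadjusted *P* under 0.05, and the block called 26 genes (0.277%), no member among them.
Hsp90ab1 differed more between replicates than between conditions, with 0, 23.1 and 71.0 in NT and 3.42, 13.4 and 98.7 in AS. Its 0 is a level below the 5 reads a site needed to be listed. In this comparison, of 16 member PASs tested on their own, 0 were called among 15966 PASs.

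At RC4, there was 1 total RNA library (replicate 4). The fit held all 10 total RNA libraries, but its spread came from the 6 NT and AS libraries alone, and the lone library was assumed to vary like them. Without the replicate block no gene was called, with 532 of 10169 (5.23%) at an unadjusted *P* under 0.05. With it, 4.37% of genes were called higher and 3 of the 9 members were among them by edgeR. Hsp90aa1 had a log2 change of 2.81 (SE 0.36, adjusted *P* = 0.0079), Chordc1 1.74 (SE 0.23, adjusted *P* = 0.0079) and Ahsa1 1.18 (SE 0.28, adjusted *P* = 0.0443). Hsp90ab1 had 1.46 (SE 0.54, adjusted *P* = 0.144) and Stip1 0.87 (SE 0.28, adjusted *P* = 0.0987). The same numbered libraries deviated together (r of 0.814 to 0.886), which is why the blocked values are given.

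In the time course within replicate 4, all members but Cdc37 and Trap1 had their highest level at RC4. Hsp90aa1 was 11.5 in NT, 24.2 in AS, 91.2 at RC4, 38.1 at 8 h, 30.9 at 12 h and 21.9 at 24 h. Hsp90ab1 was 71.0, 98.7, 226, 138, 107 and 87.4 at the same points, and Chordc1 was 180, 209, 595, 230, 227 and 176. At 24 h the log2 ratio to NT was 0.90 for Hsp90aa1 (22 reads against 16), 0.30 for Hsp90ab1 and -0.03 for Chordc1. Stip1 went from 706 in NT to 1269 at RC4 and 714 at 8 h, and Ahsa1 from 72.4 to 174 and 102. Cdc37 lay between 408 (8 h) and 667 (24 h) and Trap1 between 117 (12 h) and 172 (24 h). No member was called at 8, 12 or 24 h by edgeR with or without the block, and at 8 h the block called 0.157% of genes and at the later times 0%. Without the block, 159, 86 and 216 of 10169 genes had an unadjusted *P* under 0.05 at these times.

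**Figure D3:**
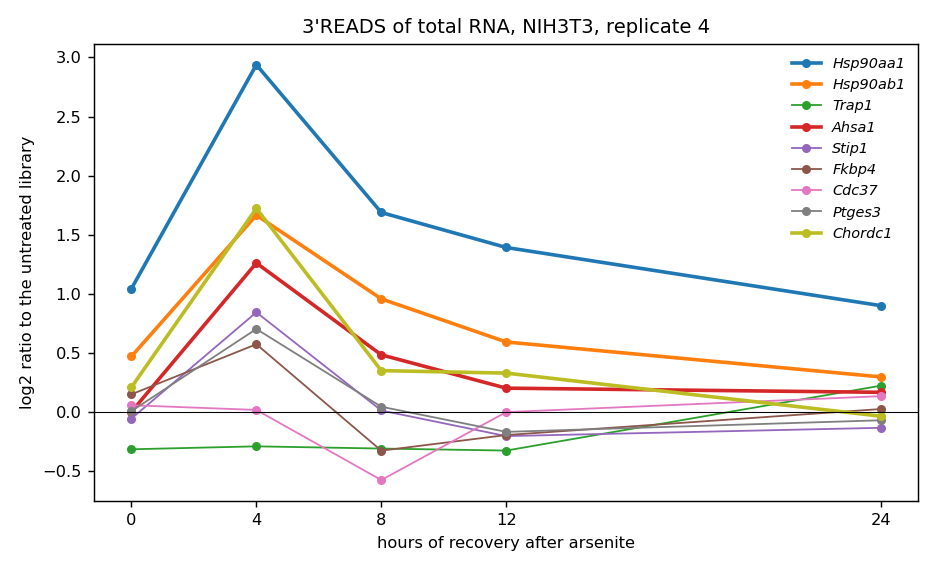
log2 ratio of each gene to the untreated library in NIH3T3 total RNA of replicate 4, against hours of recovery (0 is the end of arsenite), with 1 library per point. Hsp90aa1 reaches 2.94 at 4 h and is 0.90 at 24 h, whereas Chordc1 falls from 1.72 at 4 h to 0.35 at 8 h.

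In C2C12 cells, too, Chordc1 and the cytosolic HSP90 genes were past 2-fold higher at RC4. In cytoplasmic RNA of proliferating cells at the end of arsenite, 0 of 9 members were past 2-fold (5.15% of genes), with Hsp90aa1 at 15.7 in NT and 26.9 in AS. At RC4 3 were past 2-fold higher (12.3% of genes). Chordc1 went from 91.2 to 380 (log2 ratio 2.06, 1.79 to 2.32), Hsp90aa1 from 20.5 to 60.1 (1.53, 0.95 to 2.11) and Hsp90ab1 from 180 to 455 (1.33). Fkbp4 (0.96), Ptges3 (0.93) and Stip1 (0.91) fell just short of 2-fold. The untreated libraries of C2C12P differed by a log2 SD of 0.77 over genes, and 10.6% of genes were past 2-fold between them.

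In differentiated C2C12 cells Hsp90aa1 was at 2.01-fold in AS (50 reads against 19), the 1 member past 2-fold against 5.52% of genes. At RC4 5 members were past 2-fold higher, against 8.17% of genes. Chordc1 went from 90.3 to 531 (log2 ratio 2.55), Hsp90ab1 from 87.9 to 373 (2.08) and Hsp90aa1 from 10.99 to 44.1 (3.88-fold, log2 interval 1.35 to 2.56). Stip1 had 1.30 and Ahsa1 1.06. With both untreated libraries summed, the C2C12P log2 ratios at RC4 were 1.80 for Chordc1, 1.70 for Hsp90aa1 and 1.52 for Hsp90ab1, closer together than above. At RC4, C2C12 cells gave cytoplasmic RNA, and NIH3T3 cells gave total RNA or its 4sU and Ft fractions. Cell line and RNA fraction cannot be told apart there. At AS, cytoplasmic input RNA of NIH3T3 cells had Hsp90aa1 log2 ratios of 0.62 and 1.07, beside 0.76 in C2C12P and 1.01 in C2C12D.

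Most of the set was lower in differentiated than in proliferating C2C12 cells. In total RNA of untreated cells, 6 of 9 members were lower in C2C12D than in C2C12P by edgeR, against 29.3% of 10434 genes, and 0 were higher, against 32.6%. Hsp90aa1 read 16.1 and 17.4 in C2C12P and 6.07 and 6.53 in C2C12D, a log2 change of -1.40 (SE 0.29, adjusted *P* = 0.000448). Hsp90ab1 read 224 and 185 against 93.5 and 94.1, a change of -1.12 (SE 0.12, adjusted *P* = 5.55e-07). Fkbp4 read 765 and 660 against 359 and 347, a change of -1.01 (SE 0.10, adjusted *P* = 1.99e-07). For these 3 genes the groups were well apart.
Smaller changes were called for Ptges3 (-0.45, adjusted *P* = 0.0126 by edgeR), Ahsa1 (-0.44, adjusted *P* = 0.0343) and Stip1 (-0.33, adjusted *P* = 0.0131). These 3 calls were lost without C2C12D replicate 3, which left 3 members called. Ahsa1 was also lost without C2C12D replicate 2 (adjusted *P* = 0.176) or C2C12P replicate 2 (0.325), and by DESeq2 (0.0775) or with no filter on low counts (0.056). Chordc1 (0.24, adjusted *P* = 0.0781 by edgeR), Trap1 (0.21, 0.144) and Cdc37 (-0.07, 0.533) were not called. All 5 proliferation markers were lower and all 8 myotube genes higher in C2C12D, and the part of cell division in these changes was not tested. In the separate untreated cytoplasmic libraries Hsp90ab1 was 135 and 180 in C2C12P and 83.4 and 87.9 in C2C12D, and Fkbp4 was 889 and 699 against 453 and 386.

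**Figure D4:**
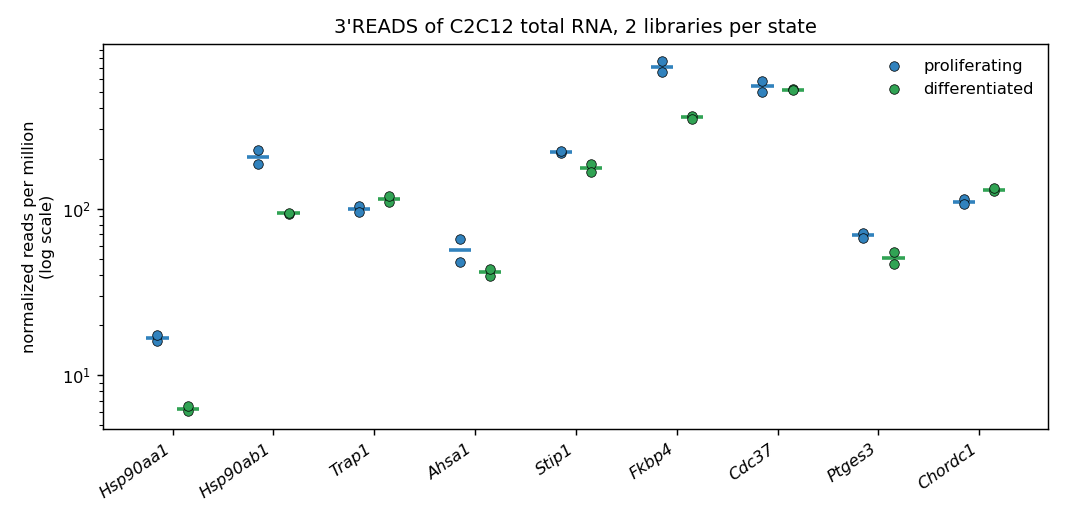
Normalized 3′READS level of the 9 genes in total RNA of proliferating and differentiated C2C12 cells on a log axis, with 1 point per library, 2 per state, and a bar at the mean. The states are clearly apart for Hsp90aa1, Hsp90ab1 and Fkbp4 and close for Cdc37, Trap1 and Chordc1.

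TIA1 RIP asked which mRNAs the protein held before and during stress. All 9 members had a negative mean log2 TIA1 to input change in NT cells, from -0.35 (Chordc1) to -1.64 (Stip1). The sign did not hold in each replicate. In NT replicate 2, Hsp90aa1 had 0.39 (percentile 59.6 of genes) and Chordc1 0.05 (percentile 50.7), so a ratio near 0 lay near the middle of genes there. No member was called by edgeR, which called 1.73% of 9942 genes lower and 1.8% higher. TIA1 and input libraries of the same treatment and number come from the same lysate. The block used the number alone, shared by NT and AS libraries, so it did not model each lysate. With this block 9.66% of genes were called lower and 3 members were among them. Cdc37 read 196 and 112 in TIA1 and 379 and 530 in input, a change of -1.64 (SE 0.34, adjusted *P* = 0.00739). Stip1 read 85.7 and 50.8 against 292 and 133.5, a change of -1.59 (SE 0.40, adjusted *P* = 0.02). Fkbp4 read 210.5 and 162 against 431 and 320.3, a change of -1.01 (SE 0.26, adjusted *P* = 0.0225). For all 3 genes both TIA1 libraries lay below both input libraries.
With AS, none was called without the block (0.785% of genes were lower), and with it (8.47% lower) Cdc37 (-1.12, adjusted *P* = 0.0427) and Fkbp4 (-0.92, adjusted *P* = 0.0369) were called by edgeR. The change of TIA1 to input between NT and AS was called for 0 members and 0 genes, with 217 genes (2.18%) at an unadjusted *P* under 0.05, and Stip1 had the largest member value, 0.84 (SE 0.56, adjusted *P* = 0.998) with the block. No member was called between input AS and input NT, where 1 gene (0.0101%) was.

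Hsp90aa1, Fkbp4, Chordc1, Ptges3 and Trap1 had reads at both a pPAS and a dPAS, and the use of the ends is given here as shares. RED is the log2 ratio of dPAS to pPAS reads in one library minus that in another, so a negative RED is a shift to the pPAS. For Hsp90aa1 in 4sU RNA the pPAS took 21.6% of pPAS and dPAS reads in NT and 44.5% in AS (RED -1.54, -2.42 to -0.67), and 35.1% in NT at 4 h and 62.6% at RC4 (RED -1.63, -2.28 to -0.98). In Ft it took 37% in NT, 43.4% in AS, 42.7% in NT at 4 h and 61.9% at RC4 (RED at RC4 -1.12, -1.80 to -0.44). The untreated 4sU libraries of the 2 times themselves differed by a RED of -0.97 (-1.98 to 0.03).
In total RNA the shares were mostly lower, at 0 to 22.7% in the 10 libraries, a range that included the 21.6% of 4sU RNA in NT. The pPAS took 13.2%, 16% and 0% (0 of 16 reads) in NT replicates 1, 2 and 4 and 18.3%, 16.3% and 19.2% in AS, higher in AS in each pair. The mean dPAS share was 90.3% in NT and 82.1% in AS (exact permutation test, 2-sided, *P* = 0.1, the smallest 3 against 3 libraries allow). At RC4 the pPAS share was 10.4% (6.3 to 16.7%, Wilson, 14 of 135 reads). Total RNA thus differed in the share itself from the 4sU and Ft libraries other than untreated 4sU at the end of treatment. What in their preparation differed was not tested. In C2C12 cells the pPAS share at RC4 was 57.8% in C2C12D and 56.5% in C2C12P, beside 17.9% (5 of 28 reads) and 44.4% in NT at 4 h. The other untreated libraries had 47.4% (9 of 19 reads) in C2C12D and 54.2% (13 of 24 reads) in C2C12P, close to the RC4 shares. At AS the REDs were 1.07 (-0.49 to 2.64) in C2C12D and 0.42 (-0.94 to 1.77) in C2C12P, of the opposite sign to 4sU RNA and with intervals that included 0.

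The Fkbp4 dPAS made up 85.2% and 68.2% of reads in NT input and 96.7% and 90.6% in NT TIA1 RNA, REDs of 2.34 (1.69 to 2.99) and 2.18 (1.77 to 2.58). With AS the dPAS share was 87.7% and 75.7% in input and 86.8% and 77.6% in TIA1 RNA, REDs of -0.12 and 0.15. The difference in RED between AS and NT was -2.25 (exact permutation test, 2-sided, *P* = 0.333, the smallest 2 against 2 libraries allow).
In total RNA of C2C12 cells the Fkbp4 dPAS share was 76.8% and 74.0% in C2C12P and 58.4% and 60.9% in C2C12D (exact permutation *P* = 0.333, again the smallest possible). The untreated cytoplasmic libraries had 78.7% and 78.4% in C2C12D and 81.9% and 74.7% in C2C12P, so the states overlapped there. In NIH3T3 cells with and without arsenite it differed little in the 4sU and Ft fractions, with REDs of 0.22 and -0.01 in 4sU and 0.09 and 0.15 in Ft at AS and RC4. In C2C12D it moved towards the pPAS, with REDs of -0.47 (-0.75 to -0.18) in AS and -0.43 (-0.72 to -0.15) at RC4, and in C2C12P the RED at RC4 was 0.40 (0.15 to 0.65). In NIH3T3 total RNA the share was 70.4 to 74.9% in sets 1 and 2 and 29.3 to 36.7% in set 4, a difference between sets larger than any within one, and the RED at RC4 in set 4 was -0.44 (-0.82 to -0.06).

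Chordc1 had a smaller share at its far dPAS at RC4 in all 4 comparisons with reads at both ends. The dPAS share went from 11.8% to 7.8% in 4sU (RED -0.65), from 15.4% to 6.4% in Ft (-1.42), from 18.2% to 8.1% in C2C12P (-1.34, -2.11 to -0.56) and from 11.6% to 3.7% in C2C12D (-1.76). At AS the REDs of the same libraries were 0.75, 0.03, -0.38 and -0.04, each with an interval that included 0, whereas in total RNA it was -1.29 (-1.99 to -0.59) in replicate 1 and 0.01 in replicate 2. In total RNA of replicate 4 few Chordc1 reads were at the dPAS, 0 beside 251 at the pPAS in NT and 7 beside 838 at RC4, and no RED was computed. The minor PAS upstream of the pPAS also gained reads at RC4. It had 5 reads in NT and 96 at RC4 in 4sU, 0 and 112 in Ft, 5 and 53 in C2C12P and 8 and 164 in C2C12D, which made up 6.2%, 11.8%, 9.1% and 13.4% of Chordc1 reads at RC4.
Here 0 means under the 5 reads a site needed to be listed.
Ptges3, like Fkbp4 in NT cells only, had a larger dPAS share in TIA1 than in input RNA. In NT the shares were 17.2% and 7.0% in TIA1 RNA and 4.4% and 3.7% in input, REDs of 2.17 (1.56 to 2.78) and 0.98 (0.04 to 1.92; exact permutation *P* = 0.333 for the shares). With AS the REDs were 0.33 (-0.33 to 1.00) and 1.47 (0.62 to 2.31). Against NT, the Ptges3 REDs at AS were 0.57, 0.41 and 0.87 (0.09 to 1.66) in total RNA replicates 1, 2 and 4. They had the opposite sign in 4sU, -0.62 (-1.22 to -0.02), and Ft, -0.51 (-1.09 to 0.06). The untreated 4sU libraries of the 2 times differed by -1.23 (-1.83 to -0.63). At RC4 the Ptges3 REDs were 0.26 in total RNA, -0.24 in 4sU, -0.12 in Ft, -0.27 in C2C12P and 0.78 (0.02 to 1.54) in C2C12D. For Chordc1 the REDs of TIA1 to input were 1.13 (0.45 to 1.81) in NT replicate 1 and 0.75 and 1.38 in AS, and NT replicate 2 had no listed dPAS reads. For Hsp90aa1 they had opposite signs in NT replicates 1 and 2, -1.02 (-2.06 to 0.02) and 1.42 (0.15 to 2.70). With AS, Hsp90aa1 had 1.15 (0.11 to 2.19) in replicate 2, and TIA1 replicate 1 had no listed pPAS reads. The PASs of Trap1 showed REDs of TIA1 to input from -0.68 to 0.60, each with an interval that included 0. Against NT, the Trap1 REDs at AS were -0.44, -0.58 (-0.87 to -0.28) and 0.08 in total RNA replicates 1, 2 and 4. They were -1.21 (-2.47 to 0.05) in 4sU and -0.28 in Ft. At RC4 they were 0.60 in total RNA, -0.43 in 4sU and -0.83 (-1.69 to 0.04) in Ft. Of these, only the interval of total RNA replicate 2 left out 0.

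**Figure D5:**
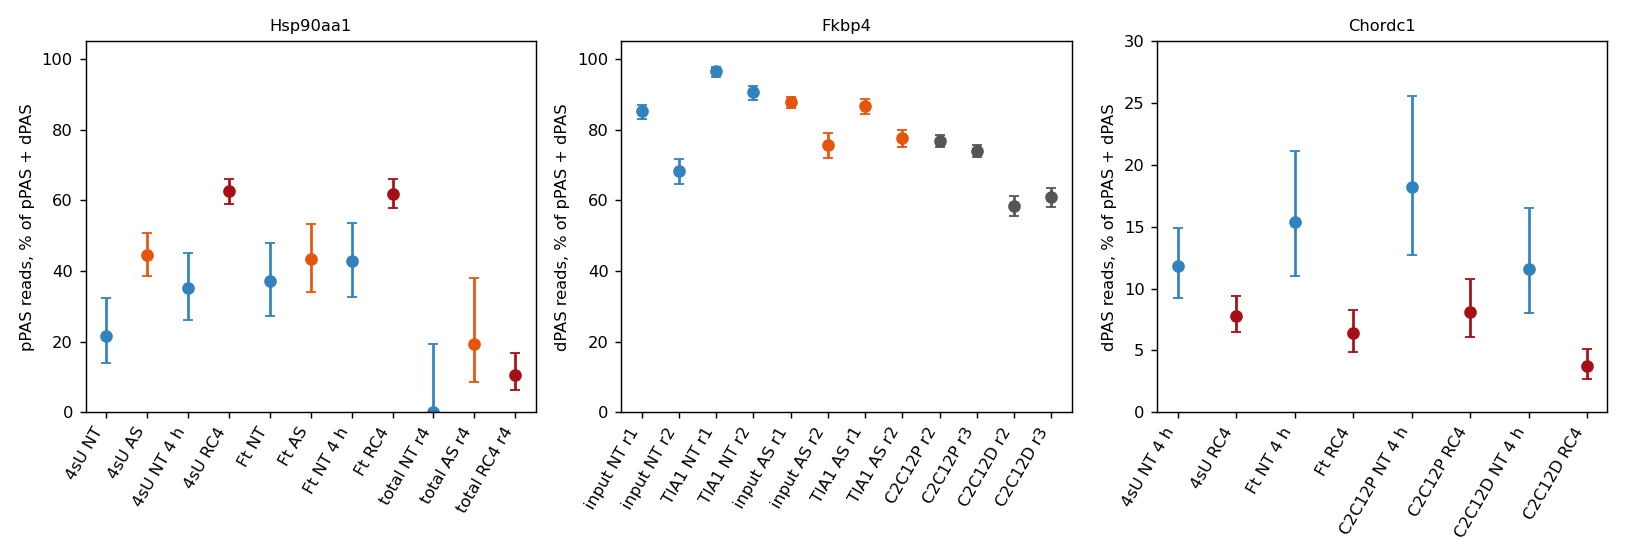
Share of reads at the pPAS of Hsp90aa1 (left) and at the dPAS of Fkbp4 (middle) and Chordc1 (right, axis to 30%), as percent of pPAS and dPAS reads, with 1 point per library and Wilson 95% intervals (r is the replicate number, colours mark NT, AS, RC4 and, in grey, untreated C2C12 total RNA). The Hsp90aa1 share is above 60% at RC4 in 4sU and Ft and 10.4% in total RNA, the Fkbp4 share is highest in NT TIA1 RNA, and the Chordc1 share is lower at RC4 in each of the 4 pairs plotted.

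Over 17 pairs of stressed and untreated 3′READS libraries and 8267 genes, the genes whose log2 ratios were most like those of Hsp90aa1 were Commd10 (Pearson's r 0.95), Prkx (0.95), Ghitm (0.93), D6Wsu116e (0.92) and Rap1b (0.92). Ahsa1 was the nearest member, with r 0.87 at rank 38. For Hsp90ab1 they were Rps27a (0.90), the chaperonin subunit Tcp1 (0.87), Fkbp1a (0.83), Parp3 (0.83) and Rpl32 (0.82), with Stip1 at rank 15 (0.78). The r between Hsp90aa1 and Hsp90ab1 was 0.48. The largest of the 17 Hsp90ab1 log2 ratios, 2.97 in total RNA replicate 1, came from 12 reads in AS and 0 in NT. This r and the Hsp90ab1 neighbours and ranks may depend on that pair, and they were not computed without it. Pairs of one set share untreated libraries, so these values are a description.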

How the data were processed

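All values are raw counts deposited by the authors. Per the submitters' processing notes and the study's methods, 3′READS reads were trimmed with cutadapt, mapped to mm9 with Bowtie2, filtered on mapping quality and on unaligned T bases, and clustered within 24 nt, and RNA-seq reads were mapped with STAR and counted over CDS. The deposited tables leave out any site or gene with fewer than 5 reads. Here, PASs were joined across libraries within 24 nt and assigned to GENCODE M1 genes of NCBIM37 (mm9) on the same strand up to 4000 nt downstream, and 244 clusters that fitted more than 1 gene were left out, 4 intronic sites shared by Ptges3 and Baz2a among them.

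Members, gene lists and comparisons were chosen with earlier results of these data known. All 9 members were named in every comparison, further genes by fixed lists, with values for at most 6 of the HSP90 machinery past the threshold and the 5 genes most like each cytosolic HSP90 gene. Replicated comparisons used edgeR 4.0.16 (R 4.3.3; quasi-likelihood test, median-ratio normalization, filterByExpr, Benjamini-Hochberg over all genes, 0.05). Comparisons of 1 library with 1 used genes with 20 reads in both together and added 0.5 to each normalized RPM. Same-numbered libraries deviated together in NIH3T3 total RNA (r 0.814 to 0.886) and in RIP (0.302 to 0.53), but not in C2C12 total RNA (0.048). In RIP, TIA1 and input of the same lysate had r 0.369 in NT and 0.418 in AS. Input AS and input NT, which are different lysates, had 0.53. Scripts were tested on simulated data. Isoform shares have Wilson intervals, and intervals cover counting error only, since reads carry no molecular identifiers. Alternatives were TMM, library totals, DESeq2 1.42.0, filters, pseudocounts, a 1000 nt limit, replicate blocks and left-out replicates.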

Additional observations from a re-analysis of the deposited data

Results flagged for a closer look

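Several genes had opposite signs at the end of arsenite and at RC4, with 1 library per condition, and none of these differences was tested. In RNA-seq of NIH3T3 cells Ahsa1 had a log2 ratio of -0.34 in AS and 2.00 at RC4, and Fkbp4 -0.17 and 1.29. In C2C12D Ahsa1 had -0.58 in AS (50 reads against 59) and 1.06 at RC4. Cdc37 had -0.11 in AS and 0.76 at RC4 in C2C12P, and 0.43 in AS in C2C12D, the opposite sign to C2C12P. The 2 untreated C2C12P libraries themselves differed for Cdc37 by a log2 of 0.57, with 944 at the end of treatment and 637 at 4 h. The treated C2C12P libraries had 872 in AS and 1081 at RC4.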

How the results depend on the processing

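Results that changed were these. With the replicate block, members called went from 0 to 3 at RC4 in total RNA, from 0 to 3 for TIA1 against input in NT and from 0 to 2 in AS. For TIA1 in NT, 2 were called with no filter on low counts and 1 by DESeq2. Over all genes the block raised the calls from 0 to 678 at RC4 and from 0 to 26 in AS in total RNA, from 351 to 1836 for TIA1 in NT (1184 with no filter, 1229 by DESeq2) and from 101 to 1612 in AS. For TIA1 in AS the filter gave 933 when left out, DESeq2 1061, TMM 57 and library totals 62, and leaving out 1 library gave 0 to 383 there and as few as 0 in NT. DESeq2 called 19 genes at RC4, 6 at 8 h (16 with the block) and 1 at 24 h, where edgeR called 0, and the AS to NT difference of TIA1 had 11 with no filter, 5 by DESeq2 and 1 with the block, while input AS against NT went from 1 to 23, 16 and 15. For C2C12D against C2C12P, leaving out 1 library gave 3 to 6 members, and the block, whose numbers did not pair these samples (r 0.048), kept the count at 6. Past 2-fold, library totals gave 4 members in Ft at RC4 and 0 in C2C12D in AS, where a pseudocount of 2 and summed untreated libraries also gave 0. Library totals also gave 5 members higher and 1 lower in RNA-seq at RC4. They put the median log2 ratio of all genes at -0.74 there, -0.44 in Ft and -0.31 in 4sU. No member past a threshold changed sign. The blocks changed no other count, and leaving out replicate 1 in total RNA, an alternative chosen after seeing the data, changed none. The 1-library conditions and the low 3′READS depth of Hsp90aa1 (16 reads in NT of replicate 4) limit what can be resolved.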

Other observations

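The 2 assays placed both cytosolic HSP90 genes differently within the set. In the untreated RNA-seq library at the end of treatment, levels per kb of CDS were 2327 for Hsp90ab1 and 492 for Hsp90aa1. Both were above the other 7, of which Ptges3 had 356 and Fkbp4 124. In 3′READS of NIH3T3 Ft RNA, which counts 1 end per transcript, Hsp90aa1 was at 30.6 in NT, the lowest of the 9. Hsp90ab1 was at 203 and Fkbp4 at 800. In total RNA the NT means were 21.4 for Hsp90aa1, 31.4 for Hsp90ab1 (SD 36.2, n = 3) and 338 for Fkbp4. The Hsp90aa1 RC4 log2 ratio was 4.39 in RNA-seq, 3.34 in Ft, 3.06 in 4sU and 2.94 in total RNA. Reads of low mapping quality had been removed by the authors. The 75 nt before the Hsp90aa1 pPAS match 5 places in the genome and those before the Hsp90ab1 PAS 2. The 3′READS levels may therefore leave out reads of these sites. The part of this in the differences was not tested.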
